A study of Mus musculus with 19 samples.

Results

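Leukocytes leave the blood in steps that are carried by a small set of surface proteins, and the genes of 6 of them were described here in mouse aortae after elastase infusion. Vcam1, Icam1, Sele, Selp and Ackr1 stand for the vessel side, and Selplg stands for the leukocyte side. The members were given as a list of symbols, and each was read from its brightest probe set among those with exactly 1 gene symbol. All 6 genes were found among the 30142 genes measured in this way, each with 1 probe set.

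The study compared the infrarenal aorta, the part of the abdominal aorta below the renal arteries, between mice infused with elastase and mice infused with saline. The 19 arrays came from 7 male PPE, 5 male sham, 4 female PPE and 3 female sham mice, with 1 mouse per array. PPE mice received type I porcine pancreatic elastase at 2.5 U/mL in saline, and sham mice received saline alone. All mice were C57BL/6J, had surgery at 10 weeks of age, were infused for 5 min at 120 mmHg and gave their aorta 7 days later. Elastase digests elastin in the vessel wall, and the infusion is a widely used model of abdominal aortic aneurysm. The model starts from an enzymatic and mechanical injury, so sham mice carry the surgery too. Per the labels, aortae were flushed with cold buffer and freed of fat and connective tissue before freezing.

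Selectins start the process. E-selectin (Sele) and P-selectin (Selp) on activated endothelium bind PSGL-1, the product of Selplg, on passing leukocytes and make them roll. ICAM-1 and VCAM-1 then bind integrins of the leukocyte, the β2 integrins for ICAM-1 and mainly α4β1 for VCAM-1, which brings the cell to arrest. ACKR1, an atypical chemokine receptor of venular endothelium and red blood cells, binds many inflammatory chemokines without classical signalling and presents or buffers them. Several of these proteins are not restricted to endothelium: VCAM-1 can be made by smooth muscle cells and fibroblasts, ICAM-1 by leukocytes, and P-selectin by platelets.

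Values are the deposited log2 array values, and a difference of 1 is a doubling. Array medians lay between 5.61 and 5.85 in the 12 male arrays and between 6.17 and 6.31 in the 7 female arrays, so levels were compared only within a cohort. Differences are PPE minus sham with standard errors and 95% intervals from limma, fitted to all genes, and a gene was called where its p, adjusted after Benjamini and Hochberg over all genes, was below 0.05. In males 19.7% of all genes were called, 9.67% as higher after PPE. In females 4.22% were called, 2.77% as higher after PPE. Of all 30142 genes, 3007 were called lower after PPE in males and 438 in females. An unadjusted p under 0.05, given beside lists with no call, was reached by 29.4% of all genes in males and 14.7% in females. The arrays carry no detection calls, and the numbers of mice limit the precision. In whole tissue, fewer cells of a type and less RNA per cell cannot be told apart.

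One array stood apart for these genes and touches most of the male results. Male sham mouse 3 had the highest value among the male sham mice for Vcam1, Icam1, Sele and Selp. Its Vcam1 value of 14.06 lay above the 12.32 to 13.24 of the other male sham mice. Its Selp value of 10.04 compared with 8.68 to 9.04 in the others, and its Sele value of 8.45 with 7.25 to 7.58. No male PPE mouse exceeded it for Vcam1 or Selp, while 7 of 7 male PPE mice lay above all 4 other male sham mice for both genes. This mouse was picked for its high values in these genes, so the separation without it is a description only. Male results are therefore given with and without this mouse. Earlier results had male sham 4, male sham 5 and male PPE 1 apart from their groups over other genes. Without these 3 the male differences were 0.23 for Vcam1, 0.78 for Icam1, 0.59 for Sele, 0.22 for Selp, 0.01 for Ackr1 and 1.54 for Selplg, and the same genes, Icam1 and Selplg, were called.

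Other lists moved with this array. Its mean over 10 neutrophil markers was 7.68, against 6.60 to 6.98 in the other male sham mice, and over 6 platelet markers 6.93, against 5.98 to 6.52. Its mean over 19 inducers and NF-kappa B pathway genes was 8.70, against 8.26 to 8.45, and over 11 ACKR1 ligands 9.14, against 8.16 to 8.73. Its means over 12 selectin ligand glycosylation enzymes (8.15, against 7.81 to 8.04) and 5 sheddase genes (10.40, against 9.88 to 10.26) were higher too. Its smooth muscle mean was lower, 12.38 against 12.94 to 13.50, as were its T and NK cell mean, 6.296 against 6.41 to 6.48, and its adipocyte mean, 8.06 against 8.66 to 11.78. Its means over 13 endothelial markers (10.05, against 10.00 to 10.13) and 12 pan-leukocyte markers (10.11, against 9.40 to 10.33) lay within the range of the others. So did its means over leukocyte integrins, other endothelial adhesion and junction molecules and other atypical chemokine receptors. The same held for venous, lymphatic, red blood cell, monocyte and macrophage, and fibroblast and mesothelial markers. The part of these markers in its selectin and Vcam1 values was not tested.

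**Figure D1:**
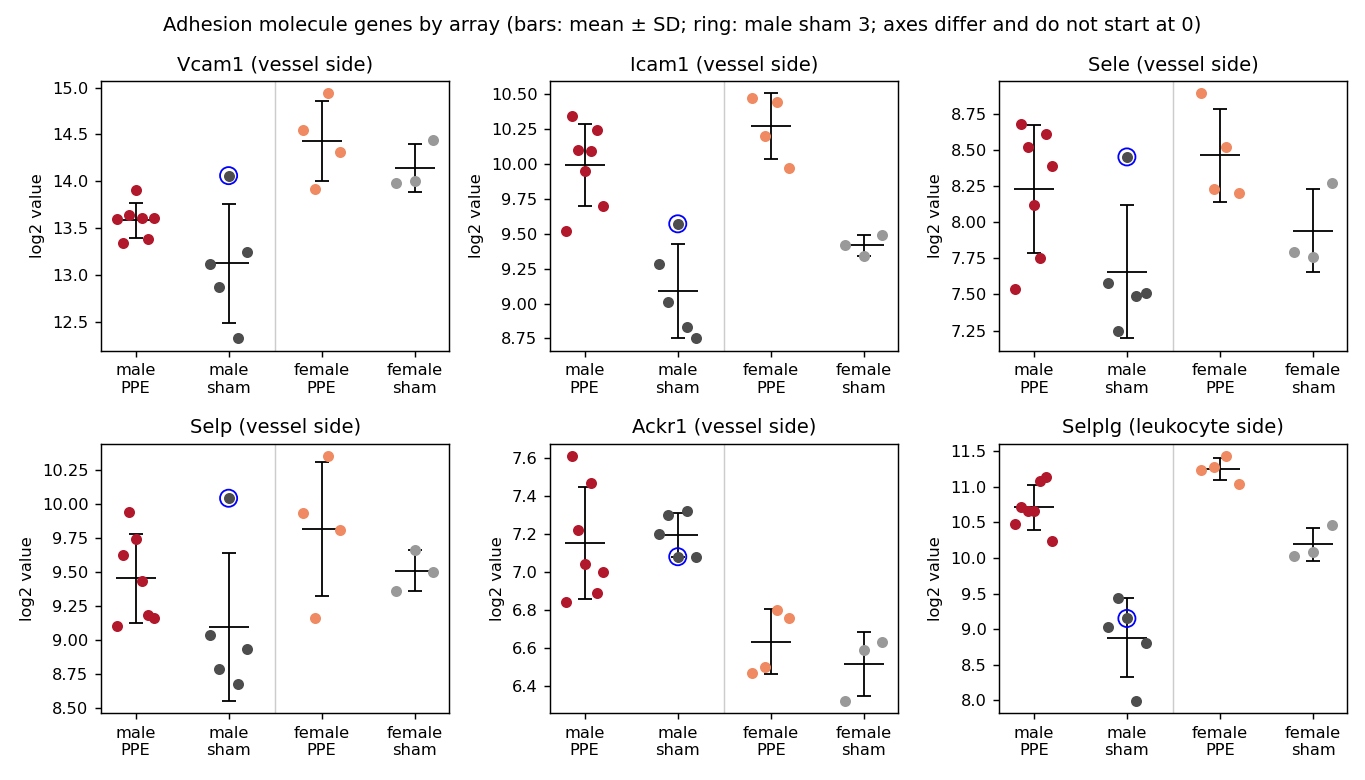
Log2 value of each array for the 6 genes, with PPE left of sham in each cohort; bars are group means with SD. Selplg and Icam1 separate PPE from sham in females, and male sham 3 (ringed) sits at 14.06 for Vcam1, above every male PPE mouse.

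Icam1 was the vessel gene that rose in both cohorts. It encodes the ligand of the β2 integrins LFA-1 and Mac-1, and the gene spans chromosome 9:21015940-21028814 (RefSeq on GRCm38.p6, the mm10 build). In male PPE mice its values had a lowest of 9.52, a median of 10.09 and a highest of 10.34, against 9.28, 9.01, 9.57, 8.83 and 8.75 in male sham mice. Only the lowest male PPE mouse lay below the highest sham mouse. The difference was 0.90 ± 0.15 (95% interval 0.58 to 1.23), a 1.87-fold rise with an adjusted p of 0.0003 by limma.

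In females Icam1 had values of 10.47, 10.20, 10.44 and 9.97 in PPE mice, against 9.42, 9.34 and 9.49 in sham mice. Every female PPE mouse was above every female sham mouse, a separation in that direction shown by 11% of all genes in this cohort. The female difference was 0.85 ± 0.20 (0.43 to 1.27), a 1.81-fold rise with an adjusted p of 0.0204 by limma. That call was lost when female PPE 1, female PPE 3 or any of the 3 female sham mice was left out, with adjusted p between 0.0542 and 0.0972 and differences between 0.79 and 0.89.

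Sele encodes the selectin that is made anew by cytokine-activated endothelium, and the gene spans chromosome 1:164039614-164058487. Male PPE mice had a lowest value of 7.54, a median of 8.39 and a highest of 8.68, against 7.58, 7.25, 8.45, 7.49 and 7.51 in male sham mice. The groups overlapped through male sham 3 at the top and male PPE 1 at the bottom. The male difference of 0.57 ± 0.22 (0.10 to 1.04) did not pass the threshold, with an adjusted p of 0.0842 by limma. It passed without male sham 3, at 0.77 ± 0.20 with an adjusted p of 0.0115, and without male PPE 1, at 0.69 with an adjusted p of 0.0258. It also passed with quantile normalization (0.63) and with array weights (0.66).

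In females Sele had values of 8.89, 8.23, 8.52 and 8.20 in PPE mice, against 7.79, 7.76 and 8.27 in sham mice. The lower PPE mice lay at the level of the highest sham mouse. The female difference of 0.52 ± 0.29 (-0.09 to 1.13) was close in size to the male one but had an adjusted p of 0.461 by limma.

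Averaged over the cohorts with equal weight, a contrast chosen after the values were seen, Sele was 0.55 ± 0.18 higher after PPE (0.16 to 0.93, adjusted p of 0.0486 by limma). In this contrast 16.8% of all genes were called. The call held in 5 of the 19 fits that left out 1 array, those without female sham 3, female PPE 4, male sham 3, male PPE 1 or male PPE 5. In the other 14 the adjusted p lay between 0.0523 and 0.131. The averaged Icam1 difference was 0.88 ± 0.13 (0.61 to 1.14), and it was called in every one of these fits.

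Selp encodes the selectin stored in the Weibel-Palade bodies of endothelial cells and in platelet granules, and it lies beside Sele, at chromosome 1:164115264-164150026. Male PPE mice had a lowest value of 9.10, a median of 9.43 and a highest of 9.94, against 9.04, 8.79, 10.04, 8.68 and 8.93 in male sham mice. Male sham 3 was above all PPE mice and the other sham mice were below all of them. The male difference was 0.36 ± 0.23 (-0.12 to 0.83, adjusted p of 0.333 by limma), and without male sham 3 it was 0.59 ± 0.19 with an adjusted p of 0.0353.

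Female Selp values were 9.93, 9.16, 10.35 and 9.81 in PPE mice, against 9.36, 9.66 and 9.50 in sham mice. One PPE mouse was below all sham mice and the other 3 were above them. The female difference was 0.31 ± 0.30 (-0.32 to 0.93, adjusted p of 0.758 by limma). Of the 6 platelet and megakaryocyte markers measured, limma called 0 in either cohort, and 1 in males and 0 in females had an unadjusted p under 0.05. They had median differences of 0.06 in males and -0.04 in females.

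Vcam1, the ligand of α4 integrins, lies at chromosome 3:116110020-116129688. Its values reached a lowest of 13.34, a median of 13.61 and a highest of 13.91 in male PPE mice, against 13.12, 12.87, 14.06, 12.32 and 13.24 in male sham mice. The PPE mice lay within a narrow band (SD 0.19, n = 7), whereas the sham mice were spread widely (SD 0.63, n = 5). The male difference of 0.46 ± 0.22 (-0.01 to 0.93) had an adjusted p of 0.176 by limma. Without male sham 3 it was 0.70 ± 0.19 with an adjusted p of 0.012, and without male sham 4, the lowest sham mouse, it was 0.26 with an adjusted p of 0.454.

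In females Vcam1 had values of 14.55, 13.92, 14.94 and 14.31 in PPE mice, against 13.98, 14.00 and 14.44 in sham mice. The female sham values lay within the range of the PPE values, and the difference was 0.29 ± 0.29 (-0.32 to 0.90, adjusted p of 0.77 by limma). The probe set was among the brighter ones on every array, between the 95.8th and 97.9th percentile of all probe sets.

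Ackr1, at chromosome 1:173331886-173333503, showed no called difference. Male PPE mice had a lowest value of 6.84, a median of 7.04 and a highest of 7.61, and so spanned the 7.20, 7.30, 7.08, 7.32 and 7.08 of male sham mice. Female values were 6.47, 6.50, 6.80 and 6.76 in PPE mice, against 6.32, 6.59 and 6.63 in sham mice. The groups overlapped in both cohorts. The differences were -0.04 ± 0.12 in males (-0.30 to 0.22, adjusted p of 0.874 by limma) and 0.12 ± 0.16 in females (-0.22 to 0.46, adjusted p of 0.841). The intervals leave room for a rise of up to 0.22 in males and 0.46 in females.

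The Ackr1 values lay between the 65.4th and 74.0th percentile of all probe sets on male arrays and between the 52.5th and 58.2nd on female arrays. Of 4 red blood cell markers measured, limma called 0 in either cohort, and 1 in males and 0 in females had an unadjusted p under 0.05. Of 6 venous endothelial markers other than the members, limma called 1 higher and 3 lower in male PPE mice. In females limma called 0, and 1 had an unadjusted p under 0.05. Of all 30142 genes, 2916 were called higher and 3007 lower in males.

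Selplg gave the largest difference of the 6 genes in both cohorts. It encodes PSGL-1, the main P-selectin ligand of leukocytes, and lies at chromosome 5:113817798-113832528. Male PPE mice had a lowest value of 10.24, a median of 10.66 and a highest of 11.13, against 9.03, 9.44, 9.15, 7.99 and 8.80 in male sham mice. All male PPE mice were above all male sham mice, as was the case for 4.69% of all genes. The difference was 1.83 ± 0.20 (1.41 to 2.25), a 3.55-fold rise with an adjusted p of 4.64e-06 by limma.

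Female Selplg values were 11.24, 11.28, 11.43 and 11.04 in PPE mice, against 10.03, 10.08 and 10.46 in sham mice. Every female PPE mouse was above every female sham mouse, as was the case for 11% of all genes in this cohort. The female difference was 1.06 ± 0.26 (0.51 to 1.61), a 2.08-fold rise with an adjusted p of 0.027 by limma. That call was lost without female PPE 1, 2 or 3 or without female sham 1 or 2, with adjusted p between 0.0625 and 0.122 and differences between 0.98 and 1.06.

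**Figure D2:**
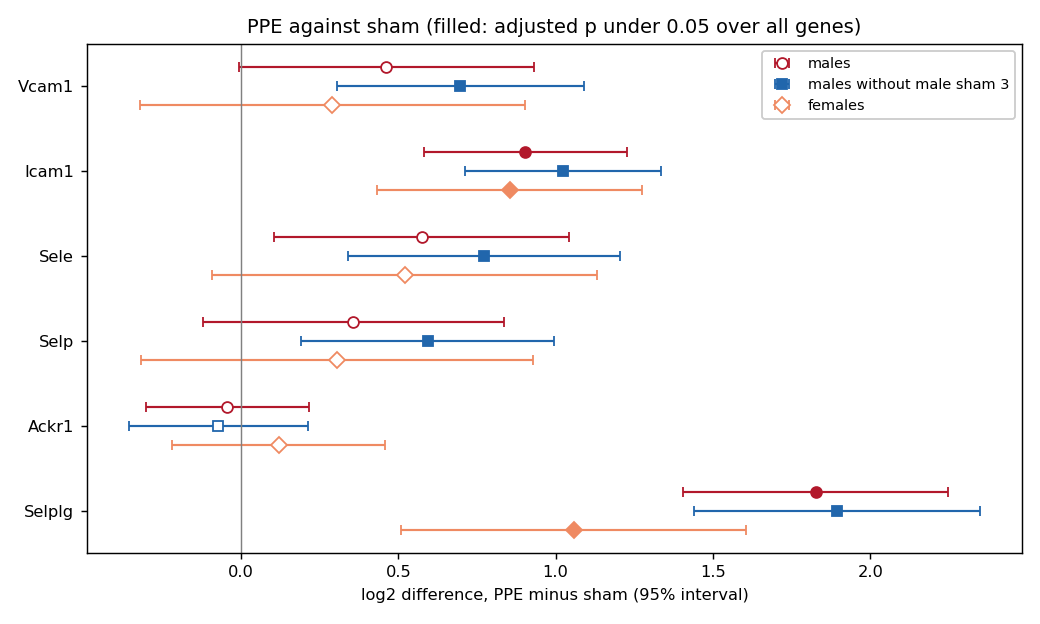
Log2 difference, PPE minus sham, for each gene with its 95% interval: all males, males without male sham 3, and females; filled symbols have an adjusted p under 0.05. Selplg and Icam1 are called in both cohorts, and Vcam1, Sele and Selp are not called with all male arrays and are called without male sham 3.

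Among the vessel genes, 1 of 5 was called higher in each cohort, and it was Icam1 both times. Among all genes, 9.67% were called higher in males and 2.77% in females. Without male sham 3, 4 of 5 were called higher in males, and 10.4% of all genes were. That mouse was singled out because it was the highest male sham mouse for these 4 genes, so leaving it out had to raise their differences, and the share of all genes is no measure for that count. Ackr1 was not called, at -0.07 with an adjusted p of 0.791 by limma. Icam1 and Selplg themselves changed little on leaving that mouse out, to 1.02 and 1.89. The part of other male mice in these calls is shown by the plot of differences with 1 mouse left out.

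**Figure D3:**
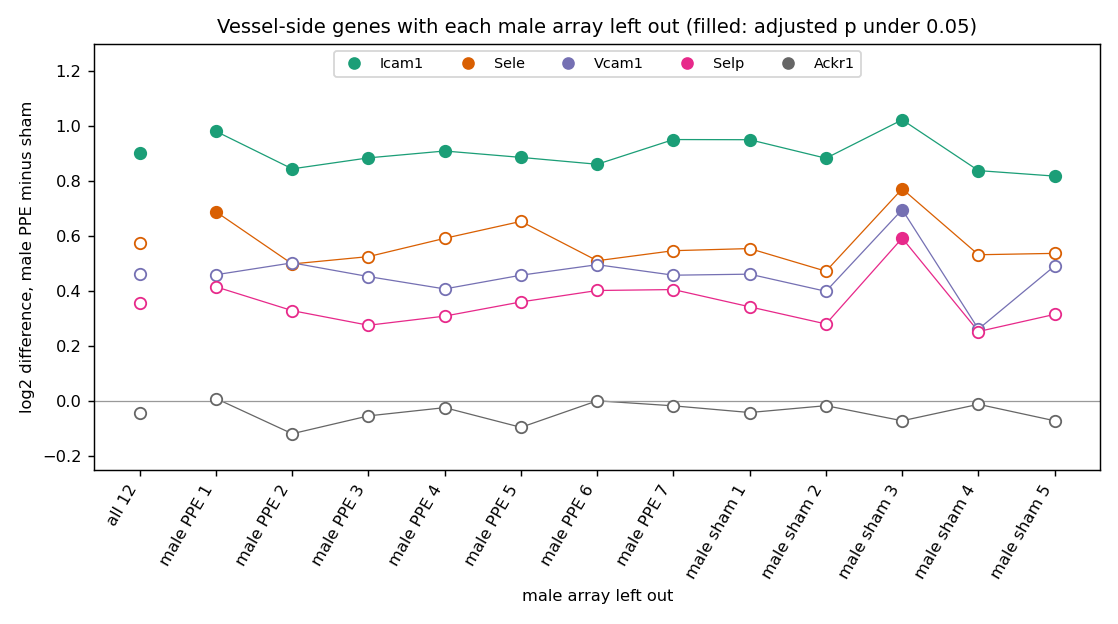
Log2 difference, male PPE minus male sham, of the 5 vessel genes (one line each) with all 12 male arrays and with each male array left out in turn; filled points have an adjusted p under 0.05. Icam1 is called in every fit, Vcam1 and Selp only in the fit without male sham 3, and Sele in the fits without male sham 3 or male PPE 1.

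None of the 6 genes passed the test of a difference in response between the cohorts, which 0.541% of all genes passed by limma. At an unadjusted p under 0.05, 1 of the 6 passed, Selplg, as did 9.95% of all genes. The Selplg rise was 0.77 ± 0.33 larger in males than in females (0.08 to 1.46), with an unadjusted p of 0.0312 and an adjusted p of 0.427 by limma. For Icam1 the male minus female difference of responses was 0.05 (-0.48 to 0.58, adjusted p of 0.966). For Vcam1, Sele, Selp and Ackr1 it was 0.17, 0.05, 0.05 and -0.16, with adjusted p between 0.838 and 0.975. The cohorts also differ in their array medians, and sex and cohort processing cannot be told apart.

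Promoter sequence is shown for the 4 genes present in the RefSeq promoter table (GRCm38.p6). Icam1 and Sele among them are known targets of cytokine signalling, and the plain letters let motifs be set side by side. Each line gives the 190 bases before the gene's start, 5′ to 3′ on its own strand, and capitals mark matches to the motifs searched. The motifs were an NF-kappa B like GGNNNTTCC (GGAANNNCC on the other strand), a STAT like TTCNNNGAA and an AP-1 like TGANTCA. Both strands of the 250 bases before the start were searched.
Icam1: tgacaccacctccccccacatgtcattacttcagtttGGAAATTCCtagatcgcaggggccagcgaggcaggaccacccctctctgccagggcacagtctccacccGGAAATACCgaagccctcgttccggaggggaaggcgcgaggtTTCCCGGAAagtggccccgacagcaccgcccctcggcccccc
Sele: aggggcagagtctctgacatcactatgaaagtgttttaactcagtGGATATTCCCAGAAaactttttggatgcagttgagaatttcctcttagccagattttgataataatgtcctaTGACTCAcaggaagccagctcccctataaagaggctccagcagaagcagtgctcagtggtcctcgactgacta
Selp: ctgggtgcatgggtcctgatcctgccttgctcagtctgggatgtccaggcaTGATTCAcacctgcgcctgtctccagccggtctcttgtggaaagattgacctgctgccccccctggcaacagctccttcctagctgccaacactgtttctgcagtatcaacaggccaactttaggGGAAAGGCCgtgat
Ackr1: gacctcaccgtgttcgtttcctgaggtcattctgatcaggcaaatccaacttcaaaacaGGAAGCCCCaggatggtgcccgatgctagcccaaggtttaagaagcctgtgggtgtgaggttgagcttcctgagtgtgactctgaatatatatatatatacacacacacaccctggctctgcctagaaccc
The windows are chromosome 9:21015750-21015939 for Icam1, 1:164048044-164048233 for Sele and 1:164115074-164115263 for Selp, all on the plus strand, and 1:173333504-173333693 on the minus strand for Ackr1. The table's start of Sele lies within the gene's span.

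Icam1 held the NF-kappa B like letters at GGAAATTCC, from -153 to -145, and on the other strand at GGAAATACC, from -84 to -76, with a STAT like TTCCCGGAA from -42 to -34. In Sele the NF-kappa B like GGATATTCC, from -145 to -137, overlapped a STAT like TTCCCAGAA from -140 to -132, and an AP-1 like TGACTCA stood from -73 to -67. Selp held an AP-1 like TGATTCA from -139 to -133 and GGAAAGGCC on the other strand from -14 to -6. Ackr1 held a single match, GGAAGCCCC on the other strand from -131 to -123. Of all 32851 promoters in the table, 15.7% held the NF-kappa B like letters, 7.02% the STAT like and 6.75% the AP-1 like letters. All 4 promoters held the NF-kappa B like letters, Ackr1 included, and a match describes letters and not a bound site.

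Most of the leukocyte counter-receptors rose along with Selplg in males. Of 13 leukocyte integrins and adhesion receptors measured, 12 were called higher in males and 7 in females, 0 were lower in either, and the median differences were 1.18 and 0.77. Over all genes the medians were 0.01 in males and -0.02 in females. Itgb2, the shared β chain of LFA-1 and Mac-1, was 1.79 higher in male PPE mice (adjusted p of 7.12e-05 by limma) and 1.28 higher in female PPE mice (0.0409). Itgal, the α chain of LFA-1 that binds ICAM-1, was 2.14 higher in males (1.49e-06) and 1.88 higher in females (0.00209). Fermt3, the kindlin-3 gene needed for integrin activation, was 1.40 higher in males and 1.17 higher in females (0.00262). The female count was 3 without female sham 1 and 2 without female sham 2, and the Itgb2 call in females was lost without any of the 3 female sham mice, without female PPE 1, 2 or 3, or without male PPE 2. It was lost too with quantile normalization (1.10, adjusted p of 0.0891 by limma) and with arrays centred on their median (1.29, 0.0756).

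Selectin binding to PSGL-1 depends on sugar groups that enzymes add to it, and for P-selectin also on tyrosine sulphation. Of 12 such enzymes measured, 4 were called higher in males and 0 in females, where 2 had an unadjusted p under 0.05 by limma. The medians were 0.15 in males and 0.09 in females. Called higher were 9.67% of all genes in males and 2.77% in females. Gcnt1, which starts the core 2 O-glycan branch of PSGL-1, was 0.68 higher in male PPE mice (adjusted p of 0.000119 by limma) and 0.27 higher in females without passing. The fucosyltransferase genes Fut4 and Fut7 were 0.49 (0.0223) and 0.30 (0.032) higher in males, and 0.43 and 0.13 higher in females without passing. Tpst2, a tyrosine sulphotransferase, was 0.30 higher in males (0.0125). Fut7 lost its call without male sham 1, 2 or 5 or male PPE 1, 4, 5 or 6, and Fut4 without male sham 2 or 4. Both lost it without male sham 4, male sham 5 and male PPE 1 together, and Fut7 also when only the groups compared were fitted (adjusted p of 0.0513 by limma). The male count was 2 without male sham 2.

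Among the other adhesion and junction molecules of the endothelium, more were lower than higher after PPE. Of 16 measured, 7 were called lower and 1 higher in males, and 3 lower and 0 higher in females, with medians of -0.32 and -0.03. Of all 30142 genes, 3007 were called lower in males and 438 in females. Pecam1, which leukocytes engage while they cross the junction, fell by 0.48 in male PPE mice (adjusted p of 0.000329 by limma) and was -0.29 in females (0.177). Mcam, the CD146 gene, fell by 1.08 in males (3.36e-06) and by 0.71 in females (0.0104, lost without female sham 2). Podxl, which encodes a sialomucin, fell by 0.85 in males (5.36e-06). Icam2, a constitutive ligand of LFA-1, was 0.01 in males and -0.04 in females, neither called. Chosen after their values were seen, Jam2 and Cd34 were the other 2 genes lower in females (-1.10 and -0.73), and F11r was the 1 gene higher in males (0.38). The female count was 1 without female sham 2.

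None of the endothelial identity markers was called higher where Icam1 was. Of 13 measured, limma called 5 lower in males and 1 in females, with medians of -0.30 and 0.00. Their male differences were uneven, from -1.28 for Ptprb to 0.21 for Kdr, with -0.07 for Cdh5. The centring given below rests on the mean of all 13. The female count was 0 without female sham 1 or 2, and 2 without female PPE 4, male sham 4 or male PPE 1. Their mean level ranged from 9.37 to 9.74 in male PPE mice, against 10.00 to 10.13 in male sham mice. In females it ranged from 10.15 to 10.38 in PPE mice, against 10.31 to 10.72 in sham mice.

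With each array centred on these endothelial markers, the male differences were 1.34 for Icam1, 1.01 for Sele, 0.90 for Vcam1, 0.79 for Selp and 0.39 for Ackr1. All 5 were then called, with adjusted p between 1.45e-05 and 0.0249 by limma. This centring moved the median of all genes by 0.44 and called 74.6% of them, so that Ackr1 was slightly below the median gene. In females the centred differences were 1.04 for Icam1 (adjusted p of 0.0161) and 0.71, 0.48, 0.49 and 0.31 for Sele, Vcam1, Selp and Ackr1, none of them called. Among all genes 4.44% were called on that scale in females, with a median of 0.17.

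Cytokines such as TNF and IL-1 can induce Icam1, Vcam1 and Sele in endothelium through NF-kappa B. Of 19 cytokine, receptor and NF-kappa B pathway genes measured, 13 were called higher in males and 7 in females, 0 lower in either, with medians of 1.01 and 0.82. Tnf was 1.91 higher in males (adjusted p of 1.93e-05 by limma) and 0.94 higher in females without passing (0.123). The female Tnf difference passed with array weights (0.97) and with the replicate block (1.14). Il1b, the strongest of the named genes, was 3.65 higher in males and 2.81 higher in females (0.00642). Tnfaip3 and Nfkbia, which are induced by NF-kappa B and restrain it, were 1.32 and 1.09 higher in males and 0.98 (0.0042) and 1.04 (0.00252) higher in females. Among the 7 cytokine genes measured here, named after their values were seen where the rule did not name them, Il1a (1.21) and Ifng (1.14) also passed in males, and Il1b alone passed in females. The female Il1b call was lost without female sham 2, which left a female count of 4, and when only the groups compared were fitted (adjusted p of 0.0515 by limma).

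ACKR1 binds chemokines of both the CC and the CXC families. Of 11 ligands measured, 7 were called higher in males and 2 in females, 0 lower in either, with medians of 1.45 and 0.97. Ccl5 was 3.40 higher in male PPE mice (adjusted p of 9.76e-07 by limma) and 2.26 higher in females (0.0038). Ccl2 was 1.65 higher in males (0.000176) and 0.98 in females (0.143), and Ccl8 was 2.96 higher in males (6.23e-06) and 1.45 in females (0.0752). The other ligand called in females, named after its value was seen, was Ccl7 at 2.16 (0.0122). The female Ccl2 difference passed without female PPE 4, at 1.23, and that of Ccl8 passed without male PPE 1, without dim genes, with array weights and when only the groups compared were fitted. The female count was 1 without female sham 1 or 2, and 4 without female PPE 4.

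Of 2 other atypical chemokine receptors measured, Ccrl2 was 1.42 higher in males (adjusted p of 0.000168 by limma) and 0.75 in females (0.205), and Ackr4 was -0.15 and -0.13, not called. Of 5 sheddase genes, 2 were higher and 2 lower in males and limma called 0 in females, where 1 had an unadjusted p under 0.05. For all 30142 genes, the male counts were 2916 higher and 3007 lower. Adam17, which sheds VCAM-1 and L-selectin, was 0.75 higher in males (0.00129), and its partner Rhbdf2 was 0.64 higher (0.000519). Rhbdf1 and Timp3, named after their values were seen, fell by 0.54 and 0.47 in males (0.0134 and 0.0332), and 1 of them lost its call without male sham 1, 2, 3 or 5 or male PPE 1, 2, 6 or 7. Adam10 was 0.31 in both cohorts and not called, though it passed in males without male sham 2 or 3. In females it passed with array weights (0.35). It also passed there without male sham 4, male sham 5 and male PPE 1 together, as did Adam17.

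**Figure D4:**
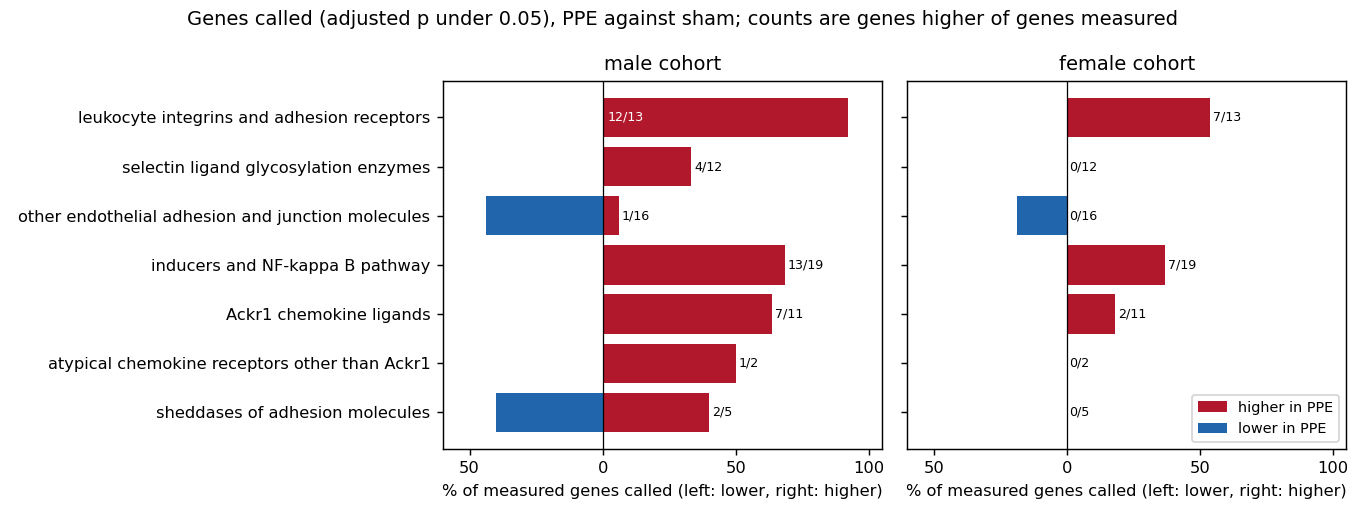
Percent of each list's measured genes called higher (right) or lower (left) in PPE aortae, males beside females, with the number higher of the number measured. Leukocyte integrins reach 12 of 13 in males and 7 of 13 in females, and among endothelial adhesion and junction molecules 7 of 16 are lower in males and 3 of 16 in females.

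Leukocyte markers moved with Selplg. All 12 pan-leukocyte markers were called higher in males and 10 in females, with medians of 1.70 and 1.06, beside Selplg differences of 1.83 and 1.06. Their mean level ranged from 11.22 to 12.15 in male PPE mice, against 9.40 to 10.33 in male sham mice. In females it ranged from 11.64 to 12.04 in PPE mice, against 10.56 to 11.05 in sham mice. The female count was 4 without female sham 1, 5 without female sham 2 or female PPE 3, and 6 without female PPE 1 or 2.

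With each array centred on these 12 markers, Selplg differed by 0.10 in males (-0.24 to 0.44, adjusted p of 0.564 by limma) and by -0.08 in females (-0.53 to 0.36, adjusted p of 0.718). The centring moved the median of all genes by -1.72 in males and -1.16 in females and called 98.8% and 93.2% of them. Relative to pan-leukocyte RNA, a change of Selplg was not detected in either cohort.

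By class, 10 of 11 monocyte and macrophage markers, 8 of 10 neutrophil markers and 12 of 12 T and NK cell markers were called higher in males. In females these counts were 1 of 11, 5 of 10 and 10 of 12. The median differences in that order were 1.655, 1.605 and 1.74 in males and 0.741, 1.777 and 1.47 in females. Fewer of all genes were called in females, so the counts do not compare the size of the rises between the cohorts. All 10 smooth muscle markers were lower in males and 8 of 10 in females, with medians of -2.14 and -1.48. Of 7 resident fibroblast and mesothelial markers, 3 were lower in males and 2 in females. Of 5 lymphatic endothelial markers, 2 were lower in males and 0 in females, where 1 had an unadjusted p under 0.05 by limma. Called lower were 3007 of all 30142 genes in males and 438 in females. Of 6 adipocyte markers, limma called 0 in either cohort, and 1 in males and 0 in females had an unadjusted p under 0.05. The female neutrophil count was 3 without female sham 1, female sham 2 or female PPE 3, and the female smooth muscle count was 0 without female sham 2 and 4 without female sham 3, female PPE 1 or female PPE 3. The counts of the female macrophage and fibroblast markers and of the male lymphatic markers, and the 1 venous marker higher in males, were lost or lowered in 5 or more of the 19 fits with 1 array left out. The part of these cell types in the differences of Icam1, Vcam1 and Selplg was not tested.

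**Figure D5:**
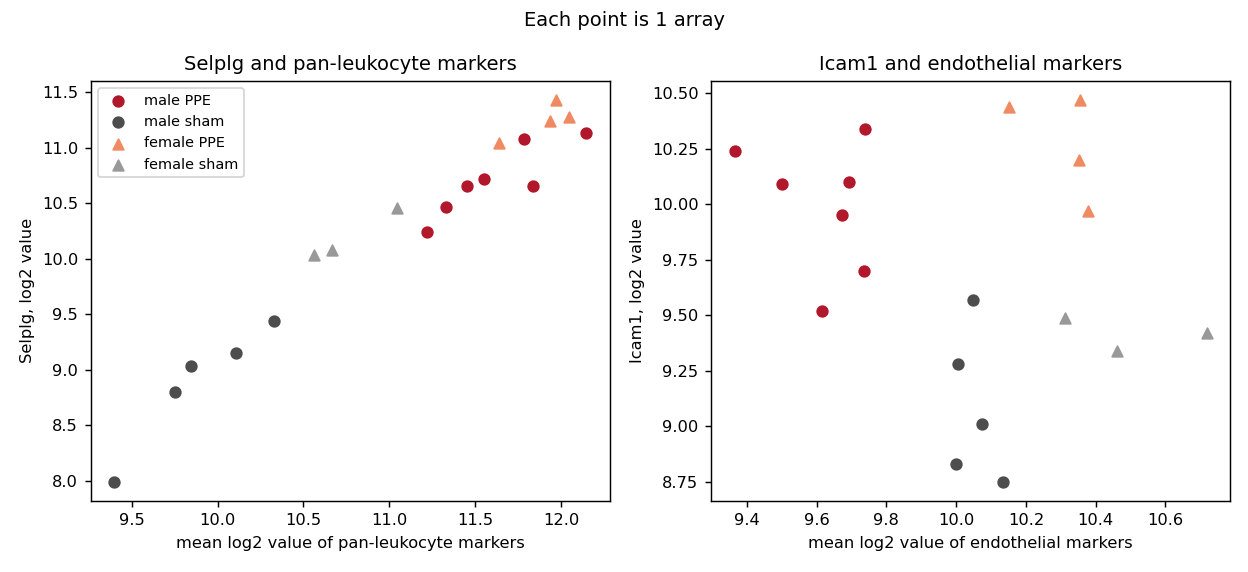
Log2 value of Selplg against the mean log2 value of 12 pan-leukocyte markers (left), and of Icam1 against that of 13 endothelial markers (right); each point is 1 array, PPE in red and orange and sham in grey, and the axes do not start at 0. The male PPE arrays have lower endothelial means (9.37 to 9.74) than the male sham arrays (10.00 to 10.13), and in each cohort the pan-leukocyte means of PPE arrays lie above those of sham arrays.

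Mouse-to-mouse variation within the groups linked some of the genes. Deviations from the 4 group means over the 19 arrays correlated at r = 0.79 between Vcam1 and Selp (rho 0.66) and at r = 0.73 between Icam1 and Sele (rho 0.74), of 15 pairs compared. These were the highest r of the 15 pairs. Without male sham 3 the values were 0.64 and 0.63, and without the 2 arrays farthest from the median they were 0.66 and 0.54. Icam1 also correlated with Selplg, on the leukocyte side, at r = 0.58 (rho 0.62, and 0.56 without the 2 farthest arrays). With Selp its r was 0.62 (rho 0.57), and Sele and Selp correlated at 0.58 (rho 0.53). Selplg correlated with the other vessel genes between 0.119 and 0.415. Ackr1 correlated with the other members between -0.125 and 0.27. The arrays share tissue composition, so these values are a description.

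The genes with the most similar deviations over the same 19 arrays, 3 per member and without a test, differed between the members. For Icam1 they were Bcl3 (r = 0.85), Birc3 (0.85) and Hhex (0.83), and for Sele they were Tifa (0.85), Kri1 (0.83) and Tnip1 (0.79). For Vcam1 they were Serpina3i (0.94), Nt5e (0.88) and Ltbp2 (0.86), and for Selp they were Mkx (0.93), H6pd (0.93) and Ereg (0.90). Those of Selplg were Pld4 (0.95), Fcer1g (0.92) and Ly86 (0.91). Those of Ackr1 were Bhlha15 (0.79), Vmn1r6 (0.76) and Kcnv2 (0.76). Without the 2 arrays farthest from the median, these r values lay between 0.52 (Vmn1r6, rho 0.55 over all arrays) and 0.90 (Pld4). Those of Nt5e and Ltbp2 with Vcam1 were then 0.74 and 0.69.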

How the data were processed

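Gene expression was measured on 19 Clariom D (MTA 1.0) arrays, 1 mouse each. The deposited values are log2 intensities; the submitters' processing notes name the Transcriptome Analysis Console and mm10 as used by the authors. Its version and the steps within it were not given in the sources used here. Probe sets with 1 gene symbol in the platform annotation (30604 of 65956) were kept, with the brightest per gene, which left 30142 genes. No further scaling was applied.

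Groups follow the sex and treatment in the labels. Their means were fitted with limma 3.58.1 (R 4.3.3) by lmFit and eBayes over all 19 arrays without covariates, and p-values were adjusted over all genes after Benjamini and Hochberg, with a threshold of 0.05. The procedure was tested on simulated data. The members and the 19 other gene lists were chosen with earlier results of these data known. Named beside the members were the first 2 measured genes of each of the 7 pathway lists and the 2 with the lowest p averaged over the cohorts. The 12 marker lists are given as counts and mean levels. The nearest patterns leave out predicted genes, genes of small RNAs and segments of antigen receptors. The values were also recomputed after quantile normalization or centring on array medians or marker lists, without dim genes, with all probe sets or their mean, with an intensity trend or weights for arrays, within each cohort alone, with a block for replicate numbers and with arrays left out.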

Additional observations from a re-analysis of the deposited data

Results flagged for a closer look

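Of 87 groups of 4 to 10 arrays examined for the members and the genes named beside them, 6 held 1 array far from the others by Dixon's criterion, and chance alone gives such an array in about 1 group in 20. For 2 of the members it was male sham 3. Its Sele value was 8.45, against 7.25 to 7.58 in the other male sham mice, and its Selp value was 10.04, against 8.68 to 9.04. Among the other genes, Tpst2 was 8.48 in male PPE 3, against 8.11 to 8.26 in the other male PPE mice. Icam2 was 7.02 in male sham 5, against 6.58 to 6.68 in the other male sham mice. Ccl5 was 7.03 in male sham 4, against 7.55 to 7.76 in the other male sham mice, and 10.37 in female PPE 4, against 11.22 to 11.39 in the other female PPE mice.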

How the results depend on the processing

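The Icam1 and Selplg rises in males were called under all 29 alternatives that did not centre on a marker list, with differences of 0.78 to 1.02 and 1.54 to 1.97. In females both were positive in all 29 and called in 23. With the arrays centred on pan-leukocyte markers, which lowers every gene by about the leukocyte rise, the male differences were -1.27 for Vcam1, -0.83 for Icam1, -1.15 for Sele, -1.37 for Selp, -1.77 for Ackr1 and 0.10 for Selplg. The female ones were -0.85, -0.28, -0.62, -0.83, -1.02 and -0.081 in that order, and the differences between the cohorts were -0.42, -0.54, -0.54 and -0.54 for Vcam1, Icam1, Sele and Selp. Centred on endothelial markers, males gave 0.90 for Vcam1, 1.01 for Sele, 0.79 for Selp and 0.39 for Ackr1, and the Ackr1 difference between the cohorts was 0.083. Sele in males also passed with quantile normalization (0.63) and array weights (0.66). The Ackr1 difference in males, near 0, turned sign with quantile normalization (0.031), median centring (0.0069), the replicate block (0.04) and without male sham 4 and 5 and male PPE 1 (0.012). Without those 3 arrays the differences between the cohorts were -0.058 for Vcam1, -0.07 for Icam1 and -0.084 for Selp. The cause of these turns was not tested.

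Same-numbered arrays had correlations of deviations of -0.32 to 0.19 in males and -0.23 to 0.24 in females. With so few arrays, these values cannot show whether replicate numbers pair the mice. The replicate block in effect leaves out male PPE 6, male PPE 7 and female PPE 4, which have no sham mouse of the same number. It also leaves less data for estimating the spread, and the part of this in lost calls was not tested. With the replicate block the female differences were 0.95 for Icam1 and 1.13 for Selplg, no longer called (adjusted p of 0.0651 and 0.0664 by limma). The differences between the cohorts were then -0.041 for Icam1 and -0.14 for Sele. Icam2 in females was 0.0067. The block left 3535 genes called in males, 639 in females and 0 for the difference between the cohorts by limma, where 2211 had an unadjusted p under 0.05.

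Genes called numbered 5923 in males, 1273 in females and 163 for the difference. In females they were 3951 with array weights, 1970 with only the groups compared and 2454 without the 3 male arrays. For the difference they were 274 with median centring, 250 without dim genes, 931 with array weights and 79 without the 3 male arrays. With 1 array left out in turn, counts ranged from 4958 to 6365 in males, 368 to 1613 in females and 0 to 426 for the difference; the counts of 0, without female sham 1 or 2, had 2966 and 2346 genes at an unadjusted p under 0.05 by limma.

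Leaving out 1 array gave male differences of 0.26 to 0.70 for Vcam1, 0.82 to 1.02 for Icam1, 0.47 to 0.77 for Sele, 0.25 to 0.59 for Selp, -0.12 to 0.009 for Ackr1 and 1.60 to 1.97 for Selplg. In females they were 0.12 to 0.46, 0.79 to 0.95, 0.38 to 0.69, 0.13 to 0.52, 0.02 to 0.18 and 0.98 to 1.19 in the same order. The differences between the cohorts ranged from -0.028 to 0.41, -0.0499 to 0.17, -0.11 to 0.25, -0.17 to 0.29, -0.24 to -0.07 and 0.55 to 0.91. Averaged over the cohorts, Ackr1 ranged from -0.0103 to 0.067, and Icam2 ranged from -0.018 to 0.093 in males and -0.077 to 0.0067 in females. Of 1332 values of the other named genes under alternatives, 1277 kept direction and call. Of the rest, 28 lost a call, 20 gained a call and 7 turned sign. With array weights the female differences of Gcnt1, Tpst2, Pecam1, Tnf, Ccl8, Ccrl2, Adam10 and Rhbdf2 passed, and with quantile normalization that of Podxl.

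The groups of 3 to 7 mice limit precision, and the arrays carry no detection calls.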
